A study of Arabidopsis thaliana with 6 samples.

Results

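The 4 probe sets described here measure lipid transfer protein genes of Arabidopsis thaliana, out of 22810 probe sets on the array. AT5G55450 (probe set 248062_at) and AT5G48490 (probe set 248683_at) were found by their locus in the probe annotation. LTP3 (probe set 247717_at, locus AT5G59320) and LTP4 (probe set 247718_at, locus AT5G59310) were taken by probe set ID, and the probe annotation used here leaves both unnamed, so these 2 names rest on the selection alone. All 4 genes were chosen from measured values of the same arrays. The selection names no comparison for any of them. AT5G55450 was taken as chosen for its difference between CO2 levels and AT5G48490 for its difference between light levels. This is an assumption, so p-values for the other factor may be affected by the choice. For LTP3 and LTP4 no such assumption was made, so their differences in both factors are given as descriptions.

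The tissue was the rosette centre, including leaves up to number 11, of accession Col-0, the standard laboratory strain, at growth stages 3.20 to 3.50. All plants grew in compost in a growth room at 21 degrees C and 50 to 60% humidity, under 10 h of light and 14 h of darkness. Stratification, a cold period before germination, lasted 3 days at 4 degrees C, and all were treated with the insecticide Intercept. The series concerns the genetic basis of stomatal numbers under raised carbon dioxide. Its 6 ATH1 arrays, which measure RNA with short oligonucleotide probes, cover 3 light levels (low, medium and high) under both ambient and high CO2, with 1 array for each combination. No light intensity or CO2 concentration is given in the sources used here. The high-light high-CO2 array was grouped by its title, although its atmosphere entry reads as normal air. Whole rosette centres were sampled, so fewer cells of a type and less RNA per cell cannot be told apart.

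Plant lipid transfer proteins are small secreted proteins with a conserved pattern of cysteines, whose disulphide bonds hold a helical fold around a cavity that binds fatty acids and related lipids. They act in the apoplast and cell wall, many of them in the epidermis, where family members are linked to the building of the cuticle. Others take part in defence, and DIR1 is needed for long-distance signalling in systemic acquired resistance. LTP3 and LTP4 belong to the classical type 1 group, and LTP3 is known to respond to abscisic acid and drought. In the gene table all 4 loci lie on chromosome 5. LTP3 and LTP4 are direct neighbours there, AT5G48490 is the next protein-coding gene to DIR1, and AT5G55450 lies beside AT5G55460, which was placed in the family list used below. Short probes of neighbouring relatives may share target RNA, and cross-hybridization between LTP3 and LTP4 was not tested.

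Signals are deposited MAS5 values on a linear scale, scaled so that every array has a 2% trimmed mean of 100. Median signals lay between 40.7 and 43.2. Of the leaf markers RCA, PRK and LHCB4.1, all 3 had signals of at least 2173 on every array. The meristem gene CLV3 stayed between 1.4 and 8.6, and the tapetum genes AT5G07230 and AMS stayed at or under 7, so these markers stayed at low signals. CLV3 was the only 1 of the 4 listed meristem genes with a named probe set, so the share of meristem was not checked. None of the 4 epidermal markers on the list had a probe set named by the annotation, so the share of epidermis was not checked. The array for high light in ambient CO2 stood apart from the others. On it, 47 of 22746 probe sets (0.207%) lay at least 4-fold above all 5 other arrays and at or above the filter cutoff described below. The same count was between 0 and 5 on each of the other arrays. With every signal under the cutoff raised to it, the counts were 37 on this array and 0 to 2 on the others. Results that rest on this array are therefore given with and without it.

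**Figure D1:**
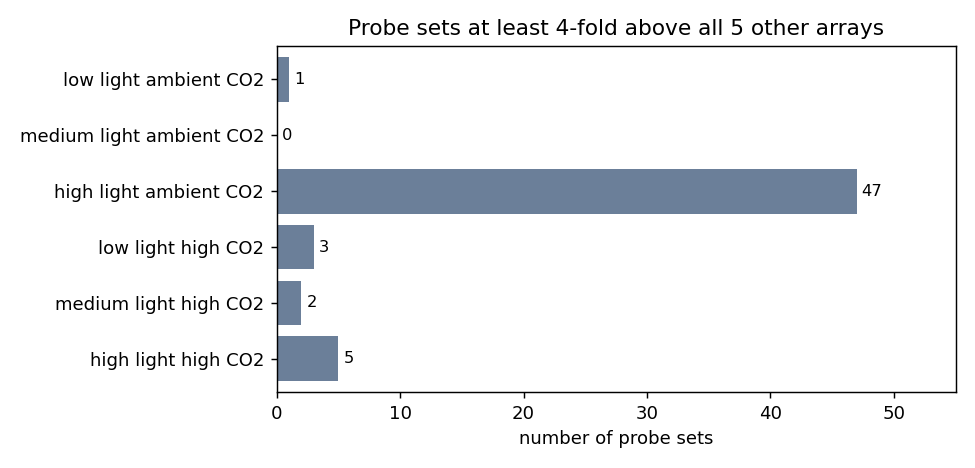
Number of probe sets (x axis) whose signal on the named array (y axis) is at least 4-fold above each of the 5 other arrays and at least at the filter cutoff of 26.7. High light in ambient CO2 has 47 such probe sets and no other array has more than 5.

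AT5G55450, a family member with no symbol in the gene table, was higher at each step of light under both CO2 levels, and higher in high CO2 at each light level. Under ambient CO2 its signal was 159.1 in low, 239.1 in medium and 619.9 in high light. Under high CO2 it was 318.3 in low, 710.8 in medium and 1286.7 in high light. The ranges of the ambient and high CO2 arrays overlap when light is ignored, from 159.1 to 619.9 and from 318.3 to 1286.7.

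The CO2 difference by which AT5G55450 was taken as chosen was 2.00-fold in low light, 2.97-fold in medium light and 2.08-fold in high light. On the log2 scale the additive fit gave 1.21 ± 0.14 (SE of the limma fit, 6 arrays). This is a description and not a test, since the gene was taken as picked by it. The fit across all genes called 8 of 13648 probe sets (0.0586%) for CO2. Without either medium-light array the difference was 1.03, and without either high-light array it was 1.29. The product of CO2 and light order, a test of whether the CO2 difference changes steadily with light, was 0.03 ± 0.22 per light step for AT5G55450, with an adjusted p of 1.00 in the limma fit.

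AT5G55450 was taken as chosen for CO2 and not for light, and its light differences passed the test. The choice was made with results of these arrays known and names no comparison. Light may have been used in it, so these p-values may still be affected. From low to high light the signal rose 3.97-fold (log2 1.99 ± 0.17, limma adjusted p = 0.0012). The rise was 3.90-fold in ambient CO2 and 4.04-fold in high CO2, so both series of arrays show nearly the same step. From low to medium light the log2 rise was 0.87 ± 0.17 (adjusted p = 0.0317), and from medium to high light it was 1.12 ± 0.17 (adjusted p = 0.0337). Both smaller steps lost their call when the spread was fitted with no intensity trend (adjusted p = 0.0934 and 0.138), with no filter (0.0737 and 0.094) and with the atmosphere entry (0.188 and 0.0681). The low-to-medium call also ended without the low-light ambient-CO2 array (0.0892), the low-light high-CO2 array (0.206) or the medium-light high-CO2 array (0.117). The medium-to-high call ended without the medium-light ambient-CO2 array (0.183). Leaving out the high-light ambient-CO2 array gave a low-to-high rise of 1.87, which still passed (adjusted p = 0.000112). When the high-light high-CO2 array was instead counted as ambient, following its atmosphere entry, the rise was 2.63 (adjusted p = 0.0101), over 1.5 times larger as a fold.

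In the order of its 6 levels, low light in high CO2 lay between medium and high light in ambient CO2. The fitted spread of 1 array was 0.17 on the log2 scale, which gives 0.23 for a difference between 2 arrays. The signals of 619.9 in high light with ambient CO2 and 710.8 in medium light with high CO2 differ by 0.20, which is within that spread. Every other pair of neighbours in the order differs by more, from 0.41 between medium light in ambient CO2 and low light in high CO2 up to 0.96 between low light in high CO2 and high light in ambient CO2.

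AT5G48490 ran the opposite way with light. Under ambient CO2 its signal was 1733.5 in low, 1338.1 in medium and 348.1 in high light. Under high CO2 it was 1532 in low, 901.3 in medium and 270 in high light. Both high-light arrays lie below the other 4, with no overlap. Most of the drop falls between medium and high light, where the signal was 3.84-fold lower in ambient CO2 and 3.34-fold lower in high CO2. Between low and medium light it was 1.30-fold and 1.70-fold lower. The light difference by which it was taken as chosen was -2.41 ± 0.13 on the log2 scale between high and low light, given as a description. Of the tested probe sets, 0.352% had a larger absolute difference, a rank that the choice itself may have set.

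AT5G48490 was taken as chosen for light and not for CO2, although the choice was made with results of these arrays known. Its signal was lower in high CO2 at 3 of 3 light levels, by 0.18 in low, 0.57 in medium and 0.37 in high light on the log2 scale. The fitted CO2 difference was -0.37 ± 0.11, with an unadjusted p of 0.00937 and a limma adjusted p of 0.4, so it did not pass. The adjusted p stayed between 0.349 and 0.766 under every alternative tried. The product of CO2 and light order was -0.09 ± 0.34 for AT5G48490 (adjusted p of 1.00). In the order of levels, low light in ambient CO2 (1733.5) and low light in high CO2 (1532) differ by 0.178, within the spread of 0.188 for a difference between 2 arrays. Medium light in ambient CO2 (1338.1) lies 0.195 below the latter, just past it.

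**Figure D2:**
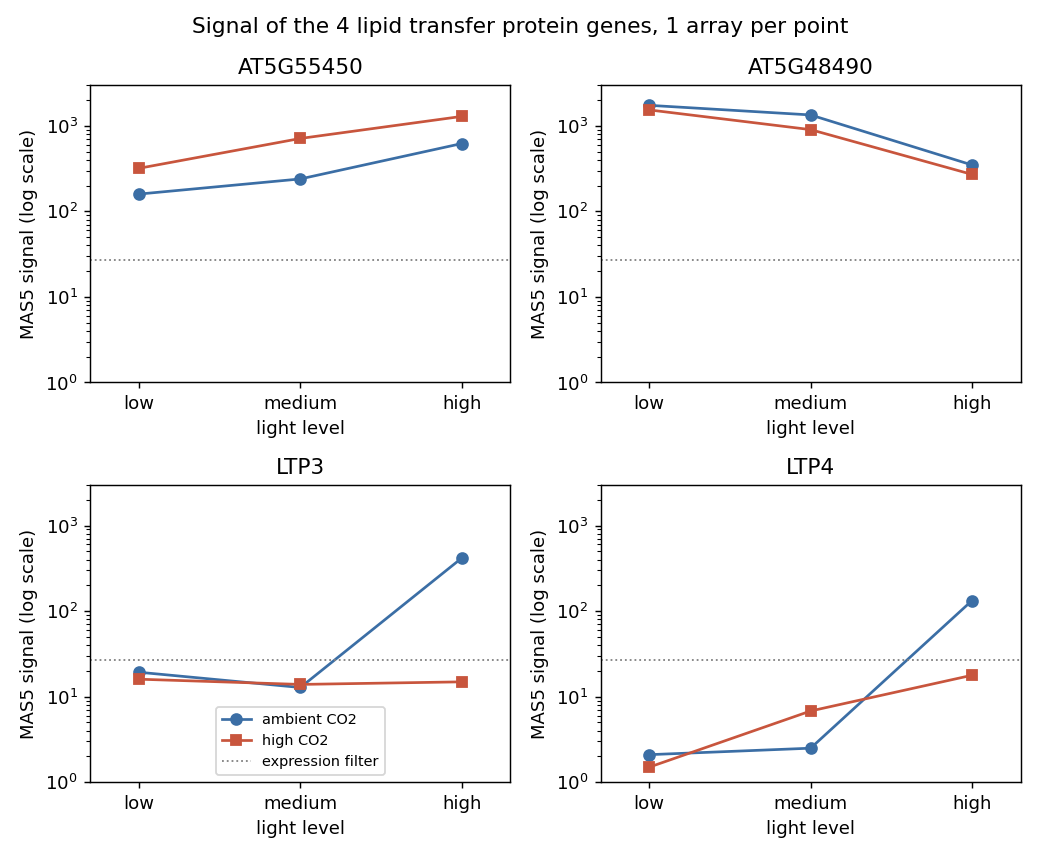
MAS5 signal (y axis, log scale) of each of the 4 genes against light level (x axis), with 1 array per point, circles for ambient CO2 and squares for high CO2, and no error bars since no combination was replicated. AT5G55450 rises with light at both CO2 levels, AT5G48490 is lower in high light, and LTP3 and LTP4 exceed the dotted filter cutoff of 26.7 only in high light with ambient CO2.

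LTP3 was high on 1 array. The ambient CO2 signals were 19.3 in low, 12.8 in medium and 417.2 in high light. The high CO2 signals were 16 in low, 13.9 in medium and 14.9 in high light. The 5 other signals span only 1.51-fold. All 5 lie under the filter cutoff of 26.7, the lowest mean signal among tested probe sets, and detection calls were not used. Those 5 values are low signals with no firm order, so folds are given as bounds, with that cutoff in place of each. LTP3 in high light with ambient CO2 was at least 15.7-fold above every other array.

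In high light, the signals of LTP3 as deposited gave a log2 difference of -4.81 between high and ambient CO2. This holds by array title. By its atmosphere entry the high-light high-CO2 array was ambient, and then both arrays compared were ambient. The fitted CO2 difference over all arrays was -1.65 by title and -0.08 by that entry, and it was not tested. In low and medium light the CO2 differences were -0.27 and 0.12. High minus low light was 4.43 on the log2 scale in ambient CO2 and -0.10 in high CO2. With the 25th percentile of signal (12.7) added before taking logs, the CO2 difference in high light was -3.96. The size therefore depends on how low signals are handled, while the direction did not change under any scaling tried. LTP3 ranked 13695th by mean log2 signal and fell just short of the 13648 probe sets tested, and no p-value is given for it. With signals raised to the cutoff, 2 probe sets were as far above the other arrays as LTP3 on this array, LTP3 included.

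LTP4, its neighbour, was also highest on that array. The ambient CO2 signals were 2.1 in low, 2.5 in medium and 132.9 in high light. The high CO2 signals were 1.5 in low, 6.8 in medium and 17.8 in high light. The other 5 signals again lie under the cutoff of 26.7, and they span 11.9-fold. The high-light ambient-CO2 signal of LTP4 was at least 4.99-fold above them by the same bound, and 27 probe sets on that array were at least as far above the rest, LTP4 included. LTP4 thus differs from LTP3 in its second highest array, which is high light in high CO2, but at 17.8 that signal is under the cutoff.

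In high light, the signals of LTP4 as deposited gave a log2 difference of -2.90 between high and ambient CO2, and -2.26 with the 25th percentile of signal added. This too holds by array title, since by the atmosphere entry both arrays were ambient. The fitted CO2 difference over all arrays was -0.65 by title and 0.48 by that entry, and it was not tested. The CO2 differences in low and medium light were -0.49 and 1.44. The log2 difference between high and low light in ambient CO2 was 5.98, and with the 25th percentile of signal added it was 3.30. In high CO2 it was 3.57, between signals of 1.5 and 17.8, too low to be firm. Without the high-light ambient-CO2 array no LTP3 or LTP4 signal above 26.7 is left.

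Over the 6 arrays the log2 signals of LTP3 and LTP4 had a Pearson correlation of 0.82, and over the 5 arrays without high light in ambient CO2 it was -0.32. Their likeness therefore rests on 1 array. AT5G55450 and AT5G48490 had a correlation of -0.88 over 6 arrays and -0.91 over the same 5. LTP4 had 0.66 with AT5G55450 and -0.88 with AT5G48490 over 6 arrays, and 0.91 and -0.95 over the 5. For LTP3 these were 0.18 and -0.50 over 6 arrays, and -0.41 and 0.29 over the 5. Over the 5 arrays all LTP3 and LTP4 signals lie under the filter cutoff, so those correlations are not firm. These values describe arrays that share the light and CO2 groups, and no p-value is attached to them.

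The 3 named genes most like each member were taken by Pearson correlation of log2 signal over the 6 arrays, among up to 7416 tested probe sets with 1 gene. For AT5G55450 they were AT2G35330 (0.98), PMM (0.98), the phosphomannomutase of ascorbate synthesis, and LCR69 (0.98), which encodes a small cysteine-rich defensin-like protein. LCR69 spanned 3.92-fold. Its ambient CO2 signals were 839.1 in low, 1143 in medium and 2724.3 in high light, and its high CO2 signals were 1443.7, 2721.3 and 3285.4. As with AT5G55450, its level in medium light with high CO2 was close to that in high light with ambient CO2. AT2G35330 and PMM also had their lowest signal in low light with ambient CO2 and their highest in high light with high CO2, over ranges of 1.40-fold and 1.73-fold. In all, 34 of 7415 probe sets exceeded a correlation of 0.95 with AT5G55450.

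For AT5G48490 the most similar genes were AT1G79160, AT1G12800 and AT5G57345, each with a correlation of 1.00 after rounding. AT1G79160 had the widest range of the 3, with low-light signals of 103.6 and 106.3 against 46 and 38.9 in high light. All 3 stayed above 0.99 without the high-light ambient-CO2 array, and 71 of 7415 probe sets exceeded 0.95 with AT5G48490.

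For LTP3 they were AT1G72940, AT4G34150 and AT3G19680, each with a correlation of at least 0.99. AT1G72940 had 302.2 in high light with ambient CO2 and between 39 and 49.2 elsewhere. AT4G34150 had 1228.1 there and at most 300 elsewhere. AT3G19680 had 748.5 there and at most 151.6 elsewhere. Their likeness to LTP3 rests on that array, since without it the correlations were 0.51, 0.83 and 0.58. For LTP4 they were AT1G07220, AT1G11200 and AT5G25475, whose highest signals were only 1.97, 1.20 and 1.61 times their lowest. Without that array their correlations with LTP4 were 0.996, 0.981 and 0.965. These rest on LTP4 signals of 1.5 to 17.8, all under the filter cutoff, so they are not firm.

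**Figure D3:**
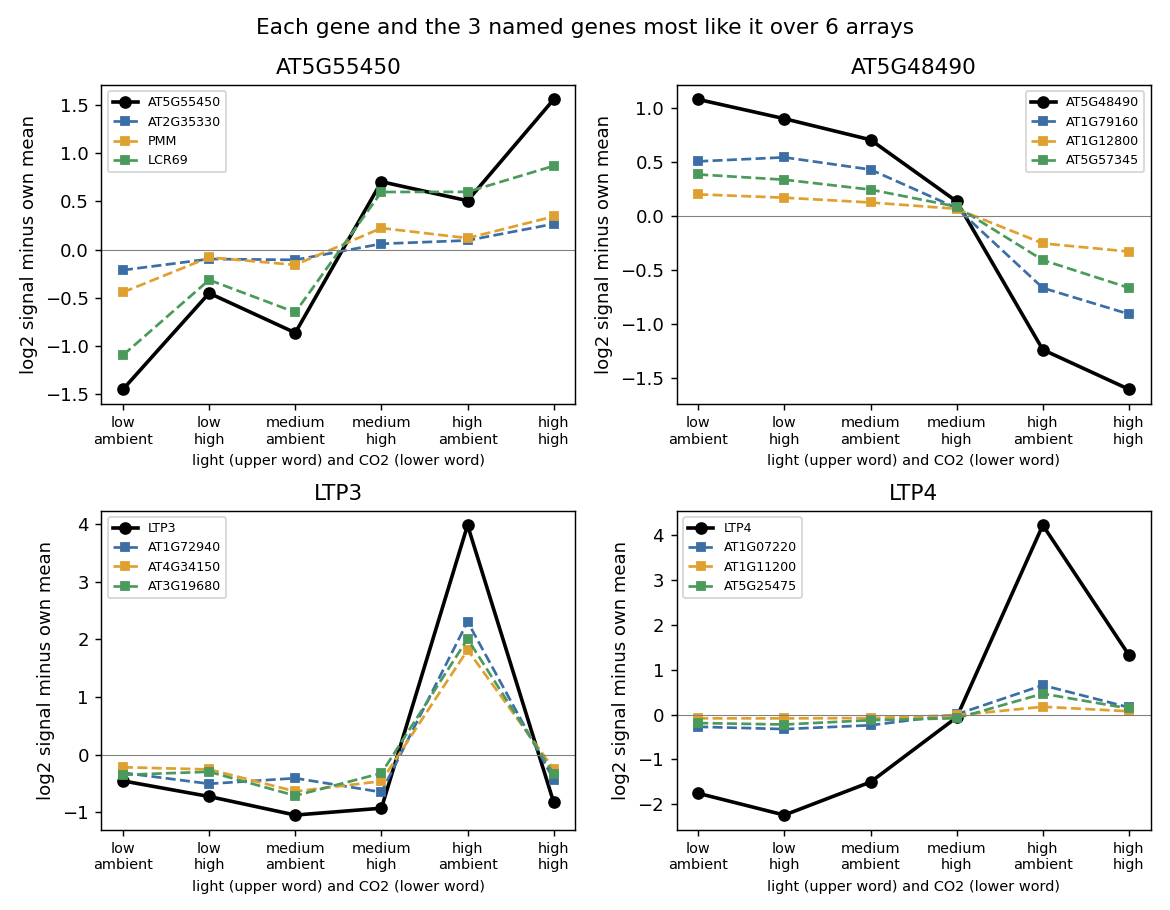
Log2 signal minus the gene's own mean over 6 arrays (y axis) for each member (black) and the 3 genes most like it (coloured, dashed), with the arrays on the x axis ordered by light and then CO2. LTP3 and its 3 genes share 1 peak, in high light with ambient CO2, while AT5G55450 and LCR69 climb over several arrays.

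The wider family was followed with a list of 57 lipid transfer protein loci. Of these, 22 had a probe set named by the annotation, and LTP3 and LTP4 bring the number to 24. The remaining 33, DIR1, LTP1, LTP2, LTP5, LTP6, LTP12 and AZI1 among them, were not analysed here. Of the 24 probe sets, 12 passed the filter, including AT5G55450 and AT5G48490. The 10 further probe sets below the filter had signals between 1.5 and 39.4.

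Between high and low light, 5 of the 12 tested list members passed, where 9% of all 13648 tested probe sets did (4.18% higher and 4.82% lower). AT5G55450 was the single rise, and AT5G48490 was one of 4 falls but was taken as chosen for that. Among the 10 tested list members other than these, 3 passed as lower and 0 as higher, while 5 of the 10 differences were positive and 5 negative, with a median log2 difference of -0.06 against 0.03 over all tested probe sets. Of these 10, 5 had an unadjusted p under 0.05, as did 25.1% of all tested probe sets.

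Of the 3 falls other than that of AT5G48490, that of AT5G05960 had the smallest adjusted p. Under ambient CO2 its signal was 189.9 in low, 48.7 in medium and 49 in high light. Under high CO2 it was 161.3, 46.7 and 45.1. Both low-light arrays lie above the other 4, so its drop falls between low and medium light, whereas most of that of AT5G48490 falls between medium and high light. The log2 difference of AT5G05960 was -1.90 ± 0.17 between high and low light (limma adjusted p = 0.00151) and -1.88 ± 0.17 between medium and low light (adjusted p = 0.0063). The second lost its call without the low-light high-CO2 array (adjusted p = 0.0576).

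AT1G62510 fell from 172.6 in low light to 60.3 in high light in ambient CO2, and from 84.4 to 50.8 in high CO2. The fitted log2 difference was -1.12 ± 0.23 (adjusted p = 0.0234). Leaving out the high-light ambient-CO2 array gave -0.73, which did not pass (adjusted p = 0.0822). AT2G45180 fell from 2928.3 to 1732.5 in ambient CO2 and from 3556.8 to 2312.3 in high CO2, with a log2 difference of -0.69 ± 0.14 (adjusted p = 0.0257). It also lost its call without that array (-0.52, adjusted p = 0.152). Both were also lost without either low-light array, without the filter and without an intensity trend, and AT2G45180 also with the atmosphere entry (-0.65, adjusted p = 0.0938).

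The medium minus low light comparison called 2 of the 12 list members, the rise of AT5G55450 and the fall of AT5G05960, against 4.54% of all tested probe sets. The high minus medium light comparison called 2 of the 12, AT5G55450 and AT5G48490, against 0.953%, and AT5G48490 was taken as chosen for its light difference. Among the 10 list members other than these 2 genes it called 0, with 3 at an unadjusted p under 0.05 in the limma fit, against 16.8% of all tested probe sets.

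Between CO2 levels, AT5G55450 was the single call among the 12 list members, against 0.0586% of all tested probe sets. It was taken as chosen for that. Among the other 10 the limma fit called 0, with 3 at an unadjusted p under 0.05, against 8.63% of all tested probe sets. These 3 were AT1G62510 (log2 -0.77 ± 0.19, adjusted p = 0.3), AT2G10940 (0.31 ± 0.09, adjusted p = 0.4) and AT1G62790 (0.56 ± 0.18, adjusted p = 0.432). Of the 10, 5 had a positive and 5 a negative difference, with a median of 0.08 against 0.01 over all tested probe sets. The next by p was AT2G37870 (-0.47 ± 0.21, adjusted p = 0.584).

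**Figure D4:**
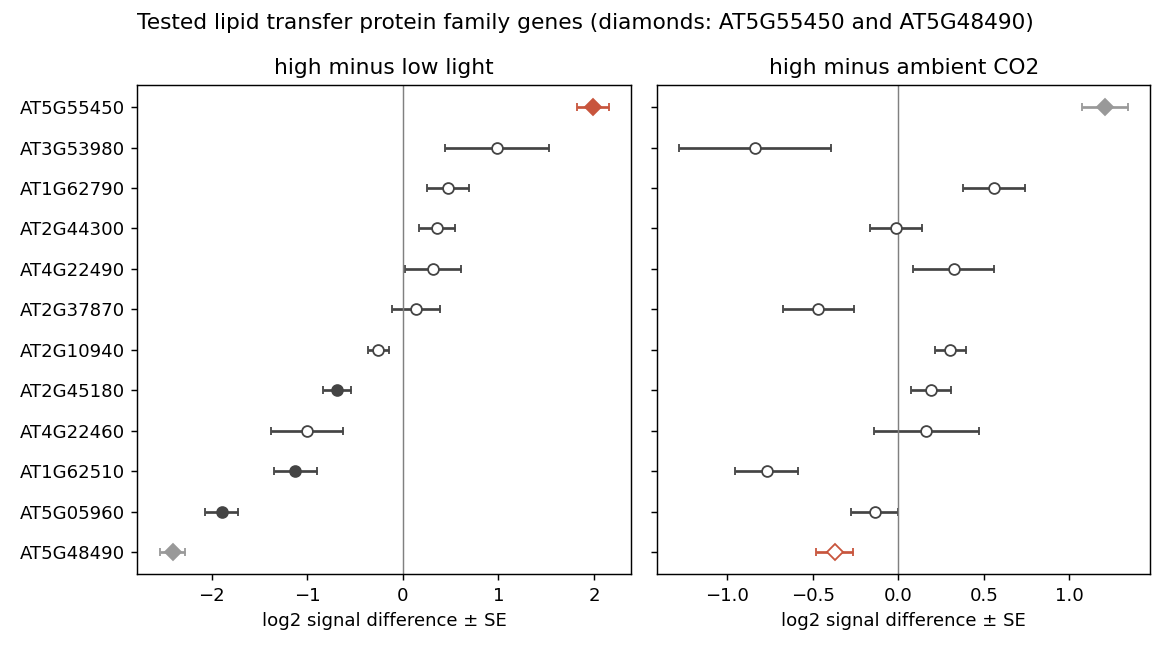
Fitted log2 signal difference (x axis, bars are the standard error of the limma fit) of the 12 tested family members (y axis) between high and low light and between high and ambient CO2. Filled symbols have an adjusted p under 0.05, open symbols do not, and grey diamonds mark the comparison by which a gene was taken as chosen. AT5G55450 lies at the top in both panels, and its light difference of 1.99 is the single filled rise.

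Lists of related processes were hardly covered by the annotation, with 1 measured gene each. AT5G52810 of the systemic acquired resistance list had a high minus low light difference of 0.54 ± 0.19 (adjusted p = 0.122) and a CO2 difference of -0.11 ± 0.15 (adjusted p = 0.901). WSD1, a wax ester synthase of the cuticle list, had 1.07 ± 0.35 for light (adjusted p = 0.105) and -1.10 ± 0.29 for CO2 (adjusted p = 0.343). COR15A, a cold and abscisic acid response gene, had 0.61 ± 0.44 for light (adjusted p = 0.445) and 0.23 ± 0.36 for CO2 (adjusted p = 0.907). Its highest signal, 2540.3, was on the high-light ambient-CO2 array where LTP3 and LTP4 peaked, against 440.4 to 1329.4 on the other arrays.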

How the data were processed

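Total RNA of 6 samples was labelled with biotin and hybridized to ATH1 arrays, per the labels. The deposited values are intensity on a linear scale, 1 MAS5 signal per probe set, per the submitters' processing notes, which give no version. The number of arrays, 1 per combination, limits the precision. The p-values set each fitted difference against the scatter of these arrays around the fitted model. In the additive fit that scatter includes any change of the CO2 difference with light, and no variation between replicates was measured.

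Signals below 0.1 were set to 0.1 before log2 was taken. Control probe sets (64) were dropped. Of the other 22746, the 60% with the highest mean log2 signal were kept, which gave 13648 probe sets and a cutoff of 26.7. Differences come from limma 3.58.1 (R 4.3.3), with CO2 plus 3 light levels as additive terms (eBayes with an intensity trend, 2 residual degrees of freedom and a mean prior of 5.76), Benjamini-Hochberg adjustment over all tested probe sets and a threshold of 0.05. A second model held CO2, a light score and their product. Both were also run on simulated data with known changes, and the outcomes of those runs are not given here. Python 3.11.15 drew the figures.

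Of 14016 annotated probe sets, 13513 carried 1 gene, and 8730 are unnamed here. Names and neighbours came from the TAIR10.1 gene table, with no coordinates, since no source used here names the array's build. Glycolipid transfer proteins, a separate family, were kept out of the name match. Genes and lists were chosen with earlier results of these data known. Named genes were the members, list members past the threshold or, for CO2, the 4 with the smallest p, up to 3 of each other list, and the 3 genes most correlated with each member. The seed and root marker lists had no named probe set. The 14 alternatives were 2 other scalings (quantile, equal medians), 2 other filters (none, the top 40%), a pseudocount of 12.7, 2 other eBayes priors, the atmosphere entry, and each array left out in turn.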

Additional observations from a re-analysis of the deposited data

Results flagged for a closer look

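The light difference of LTP3 went opposite ways at the 2 CO2 levels, which is why it is listed: high minus low light was 4.43 on the log2 scale in ambient CO2 and -0.10 in high CO2. Its CO2 difference also changed sign between light levels, with -0.27 in low, 0.12 in medium and -4.81 in high light. The CO2 difference of LTP4 changed sign likewise, with -0.49 in low, 1.44 in medium and -2.90 in high light. These differences between levels were not tested, since each value compares 1 array with 1 other. Values for high light in high CO2 follow the array title, while by its atmosphere entry that array was ambient. Except on the high-light ambient-CO2 array, every LTP3 and LTP4 signal lay under 26.7, so the signs of the small differences are not firm.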

How the results depend on the processing

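The rise of AT5G55450 from low to high light kept its direction and its call under all 14 alternatives, between 1.83 and 2.14 with 1 array left out, and its CO2 difference stayed between 1.03 and 1.31 there. The CO2 difference of AT5G48490 stayed negative and short of the threshold, between -0.47 and -0.27 with 1 array left out. Its product of CO2 and light order ranged from -0.88 to 0.69 in those fits, and that of AT5G55450 from -0.37 to 0.42, with no call.

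The counts that follow include AT5G55450 for CO2 and AT5G48490 for light, the comparisons by which these were taken as chosen. Those calls are descriptions and not tests. The number of family members called for CO2 was 1, which was AT5G55450. It became 0 with quantile normalization, without the filter, with the top 40%, without an intensity trend or with the atmosphere entry, and the size stayed at 1.20 to 1.29. For medium minus low light the number called was 2, with 1 without the filter, without a trend or with the atmosphere entry. It was 3 with quantile normalization, the top 40% or the robust prior, where AT5G48490 was also called. For high minus low light it was 5, with 3 without the filter or a trend and 4 with the atmosphere entry. For high minus medium light it was 2, with 1 without the filter and 0 without a trend. In fits with 1 array left out, these 4 counts ranged from 0 to 2, 0 to 3, 3 to 6 and 1 to 4, while the calls over all tested probe sets ranged from 8 to 144, 14 to 1630, 301 to 1636 and 4 to 852. The second CO2 call, without either high-light array, was AT1G62510. The causes were not tested. Without the filter more probe sets share the adjustment, and leaving out 1 array leaves 1 residual degree of freedom, with the lone array of that light level assumed to vary like the others.

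No paired analysis was possible because every label carries replicate 1, so there is no replicate number to block on, and the light term of the fit already compares CO2 levels within each light level. Signals under 26.7, nearly all those of LTP3 and LTP4, limit the size of any difference built on them.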
